A study of Rattus norvegicus with 21 samples.

Results

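The Hox genes encode homeodomain transcription factors and lie in 4 clusters, Hoxa to Hoxd, in which each gene carries the number of its position. Members were all genes of the expression table whose symbol is Hox, a cluster letter from a to d and a number, which gave 37 of 9998 genes. Cluster A held 11 of them, cluster B 9, cluster C 8 and cluster D 9. The 21 RNA libraries came from rat mesenchymal stem cells of bone marrow, stromal cells with the capacity to make bone, cartilage and fat. All animals or cells carried the genotype label WT. Control, with 3 libraries, carried a slash in place of a treatment. The other 18 libraries carried the treatment label SFSN, which the series title relates to self-feedback synaptic networks, and formed 6 groups of 3 that the submitters named after a fate: SFSN-EC after endothelial cells, SFSN-Ot after osteoblasts, SFSN-TC after tendon cells, SFSN-FB after fibroblasts, SFSN-Neu after neuron-like cells and SFSN-Adipo after adipocytes. The questions asked here were which Hox clusters and positions these cells expressed, and whether any member differed between SFSN and Control or among the SFSN groups.

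Genes at the low-numbered end of a Hox cluster are switched on early and near the head of the embryo, and genes at the high-numbered end later and closer to the tail and the limb tips. Genes with the same number in different clusters, called paralogs, share ancestry and often function. Connective tissue cells of adult mammals, marrow stromal cells among them, keep much of the Hox pattern of the body site they came from, held in part by the opposed Polycomb and Trithorax chromatin complexes.

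Between 8113600 and 8934239 counts per library fell on the genes of the table, which by the deposited TPM (a level per length, scaled to the library) was 38.9% to 41.6% of a library. Hoxb1, Hoxc12 and genes later in the alphabet than Map2k1, such as the Hox cofactors of the Pbx and Meis families, were not analysed here. Of the 13 marrow stromal markers in the table, all were detected in every library, from Lepr, the leptin receptor, at 1.76 to 3.40 CPM (counts scaled to the library size after TMM) in Control and 0.903 to 3.47 CPM in SFSN libraries, to Col1a1, a chain of type I collagen, at 75400 to 76800 and 55000 to 70500 CPM. SFSN-EC 1 and SFSN-Neu 2 stood furthest apart from their own replicates, with chi-square values over the gene counts, divided by their degrees of freedom, of at least 41.43 and 21.56, against 2.16 and 2.83 between the other two of each group. Smaller gaps were seen elsewhere, as for Control 1 (9.06 and 8.47 against 2.38), SFSN-FB 1 (11.58 and 14.16 against 3.53) and SFSN-Ot 3 (9.01 and 13.52 against 3.07). Without SFSN-EC 1 and SFSN-Neu 2, 8 Hox genes were called in the SFSN mean (8 with them), 6 in SFSN-EC (4 with them), 7 in SFSN-Neu (6 with them) and 3 in the test among SFSN groups (3 with them). Whether the 3 libraries of a group were separate cultures or animals is not in the labels, and p-values here reflect no more than library-to-library spread, possibly technical. In bulk RNA, fewer cells of a type and less RNA per cell cannot be told apart.

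Counts of cluster A need care. All 11 Hoxa rows held counts that were not whole numbers, as a read shared between rows gives, and none of the 26 rows of clusters B, C and D did. Hoxa3, Hoxa4 and Hoxa10 each had 1 other row with the same count in all 21 libraries, and Hoxa5 and Hoxa9 each had 2. The Hoxa10 row therefore held 50% of the counts of its rows, and the Hoxa5 and Hoxa9 rows 33.3%. Hoxa2 had a second row of that name, and Hoxa13 summed with 2 unnamed rows to whole numbers in every library. The values below are those of the row with the plain symbol, unless said to be summed over copies, an option chosen after the data were seen.

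The cells expressed genes of all 4 clusters, with the highest levels at positions 8 to 11. Of the 37 members, 5 had a mean of at least 10 TPM, 13 lay between 1 and 10 TPM and 19 lay below 1 TPM. Hoxa10, which is needed for lumbar vertebrae and for the uterine lining in mice, led with a mean level of 30.3 TPM (25.81 to 35.53 over the 21 libraries). It was followed by Hoxc10 at 20.4 TPM (15.57 to 26.57), Hoxd8 at 15.7 TPM (11.85 to 19.16), Hoxa11 at 15.4 TPM (3.82 to 25.93) and Hoxc9 at 10.3 TPM (8.15 to 12.81). The highest 4 made up 59.3% of the summed Hox level. Below them came Hoxc8 at 7.70 TPM, Hoxc11 at 6.16, Hoxa9 at 5.56, Hoxc4 at 3.82, Hoxd9 at 2.42, Hoxd10 at 2.26 and Hoxa5 at 2.17 TPM. This order and the shares of single genes hold for the rows as deposited: with copies summed, Hoxa9 stood at 16.7 TPM, above Hoxd8 and Hoxa11, and Hoxa5 at 6.50 TPM. Most neighbours in this order were not separated: only Hoxa10 against Hoxc10, Hoxa9 against Hoxc4 and Hoxc4 against Hoxd9 kept their order in all 21 libraries, out of 36 neighbouring pairs. Hoxd8 exceeded Hoxa11 in 11 of 21 libraries, and Hoxd10 exceeded Hoxa5 in 10.

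**Figure D1:**
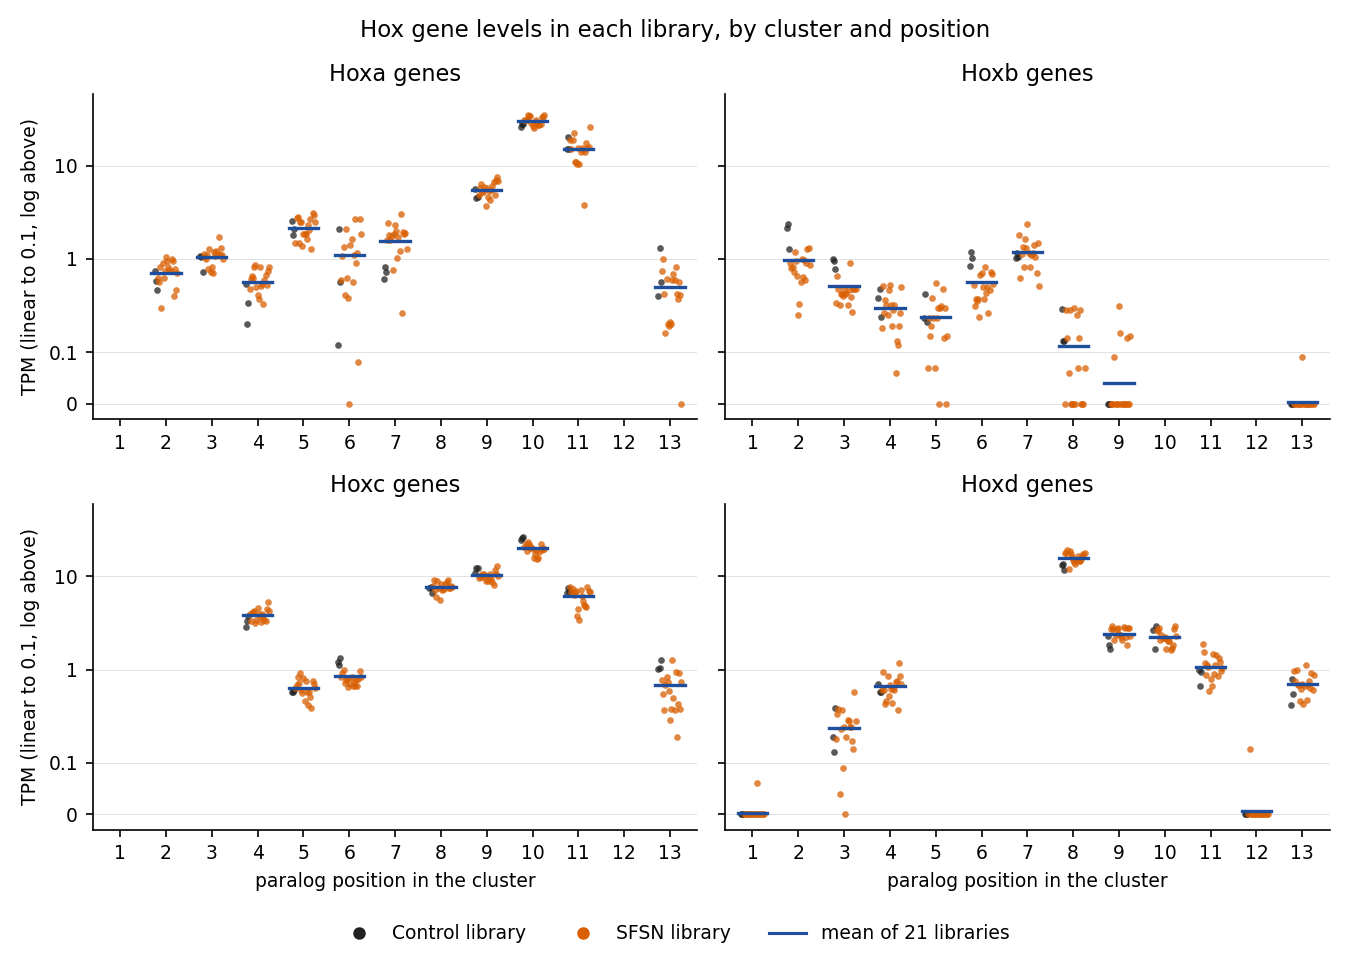
Level of 36 Hox genes in TPM (vertical axis, linear up to 0.1 and logarithmic above) against its paralog position, in 1 panel per cluster. Each point is a library, black for Control and orange for SFSN, and the blue bar is the mean of 21 libraries. The high points sit at position 10 in clusters A and C and at position 8 in cluster D, while no Hoxb gene has a mean above 1.18 TPM.

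Summed over genes, the Hox level was 114 to 158 TPM per library. Positions 9 to 13 held a median of 69.3% of it (62.5% to 76.1%), positions 4 to 8 held 26.7% and positions 1 to 3 held 3.52%. Cluster A gave a mean of 43.7% of the Hox level, cluster C 36.7%, cluster D 16.7% and cluster B 2.87%. With copies summed, cluster A came to 58.6%, cluster C came to 27.0%, cluster D to 12.3% and cluster B to 2.11%, and Hoxa10 stood at 60.6 TPM. The cluster B share was 4.11% in Control and ranged from 2.41% in SFSN-Adipo to 3.3% in SFSN-FB. In cluster B, Hoxb7 had the highest mean over the 21 libraries with 1.18 TPM, but in Control Hoxb2 stood above it (1.94 against 1.07 TPM). The tail end was almost silent: Hoxb9 had 6 counts in all 21 libraries together and Hoxb13 had 1. The effective length behind a row also moved the order. Hoxc6 stood 6th of 37 by mean count but 20th by TPM, because its effective length was 8.18 times that of the median member, against 0.537 times for Hoxc9 and 0.576 times for Hoxc8.

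Upstream sequences from RefSeq (build GRCr8, rat) were matched by symbol for 19 of the 37 members. Those of 4 genes are shown as the 250 bases before the start of the gene, on the strand of the gene and 5′ to 3′: Hoxa10 (2 windows, for 2 starts) and Hoxd11, which differed among SFSN groups, Hoxd8, the most abundant Hoxd gene, and Hoxd12, the almost silent neighbour of Hoxd11. Capitals mark 3 motifs on either strand, the TATA box with the letters TATAAA, the CCAAT box with the letters of its name and the GC box with the letters GGGCGG. None overlapped another in these windows.
Hoxa10, chr4:82665923-82666172, minus strand: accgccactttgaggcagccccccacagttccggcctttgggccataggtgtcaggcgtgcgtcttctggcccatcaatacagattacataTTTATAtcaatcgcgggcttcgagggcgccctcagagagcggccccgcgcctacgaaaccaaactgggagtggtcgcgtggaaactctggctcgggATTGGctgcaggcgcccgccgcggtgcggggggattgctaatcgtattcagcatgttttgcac
Hoxa10, chr4:82671491-82671740, minus strand: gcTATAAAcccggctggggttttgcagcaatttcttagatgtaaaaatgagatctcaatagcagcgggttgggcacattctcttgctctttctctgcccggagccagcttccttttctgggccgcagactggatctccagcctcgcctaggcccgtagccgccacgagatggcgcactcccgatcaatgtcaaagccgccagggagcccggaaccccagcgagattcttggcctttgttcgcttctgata
Hoxd11, chr3:79992144-79992393, plus strand: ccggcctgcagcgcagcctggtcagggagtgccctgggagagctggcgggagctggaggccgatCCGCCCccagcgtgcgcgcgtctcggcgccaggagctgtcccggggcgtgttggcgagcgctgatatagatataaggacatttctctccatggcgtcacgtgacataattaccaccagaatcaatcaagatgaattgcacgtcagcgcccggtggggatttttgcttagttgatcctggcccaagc
Hoxd8, chr3:80014973-80015222, plus strand: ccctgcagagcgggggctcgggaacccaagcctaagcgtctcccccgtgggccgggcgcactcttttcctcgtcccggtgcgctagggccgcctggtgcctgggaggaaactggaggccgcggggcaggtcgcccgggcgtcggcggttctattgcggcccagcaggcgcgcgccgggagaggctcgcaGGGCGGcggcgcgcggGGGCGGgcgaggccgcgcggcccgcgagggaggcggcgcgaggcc
Hoxd12, chr3:79984856-79985105, plus strand: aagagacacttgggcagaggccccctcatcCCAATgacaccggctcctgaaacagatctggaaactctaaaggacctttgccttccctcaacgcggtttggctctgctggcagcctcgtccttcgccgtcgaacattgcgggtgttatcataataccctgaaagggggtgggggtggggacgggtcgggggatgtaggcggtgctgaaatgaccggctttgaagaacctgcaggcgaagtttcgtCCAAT
The TATA box letters were found in 4 of 20 Hox windows and in 12.9% of all 33469 windows, the CCAAT box letters in 11 of 20 and 34.0%, and the GC box letters in 10 of 20 and 30.5%. The Hoxd8 window held 38 CpG dinucleotides at 78.8% GC and the Hoxd12 window 14 at 56.8%, against a median of 5 CpG and 51.2% GC over all windows. These are descriptions of letters, and the build differs from the Rnor_6.0 build of the expression files.

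Against Control, the mean of the SFSN groups had lower levels of some genes in clusters B and C. No gene of clusters A and D was called in the test described next, though some were under other settings. Of the 37 members, 29 passed the filter on low counts and were tested. The mean of the 6 SFSN groups was compared with Control by edgeR's quasi-likelihood test, with p-values adjusted over all 6659 genes tested and an adjusted p under 0.05 as a call. By this, 8 of 29 Hox genes (27.6%) were called, all of them lower, where 45.9% of all genes tested were called and 22.4% were called lower. The share of Hox genes called was thus below that of all genes, and the share called lower was close to it. Of the 8, 3 were among the 4 Hoxb genes tested and 5 among the 8 Hoxc genes tested, with 0 of 11 Hoxa genes and 0 of 6 Hoxd genes. One of them, Hoxc13, passed the filter only through Control and so could be tested only if it was lower in SFSN, which leaves 7 calls without it, 4 of them in cluster C. In clusters A and D together, 3 of these 17 had an unadjusted p under 0.05, and DESeq2 also called the same 8 genes and none of clusters A and D. Scaling by total counts, which raises the median of all genes by 0.19 on the log2 scale, gave 8 lower and 4 higher, and the higher ones were all in clusters A and D: Hoxa7, Hoxa10, Hoxd8 and Hoxd9. By limma on log2(TPM + 0.1) or log2(TPM + 1), these and Hoxa4 were called higher. TPM was taken without TMM, so like total counts it rests on a library total and is no separate check on scaling. The shares of all genes called were not taken under these settings, so the higher calls have no background beside them. The median log2 fold change was -1.26 for the tested Hoxb genes, -0.46 for Hoxc, -0.04 for Hoxa and 0.14 for Hoxd, against 0.01 for all genes.

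**Figure D2:**
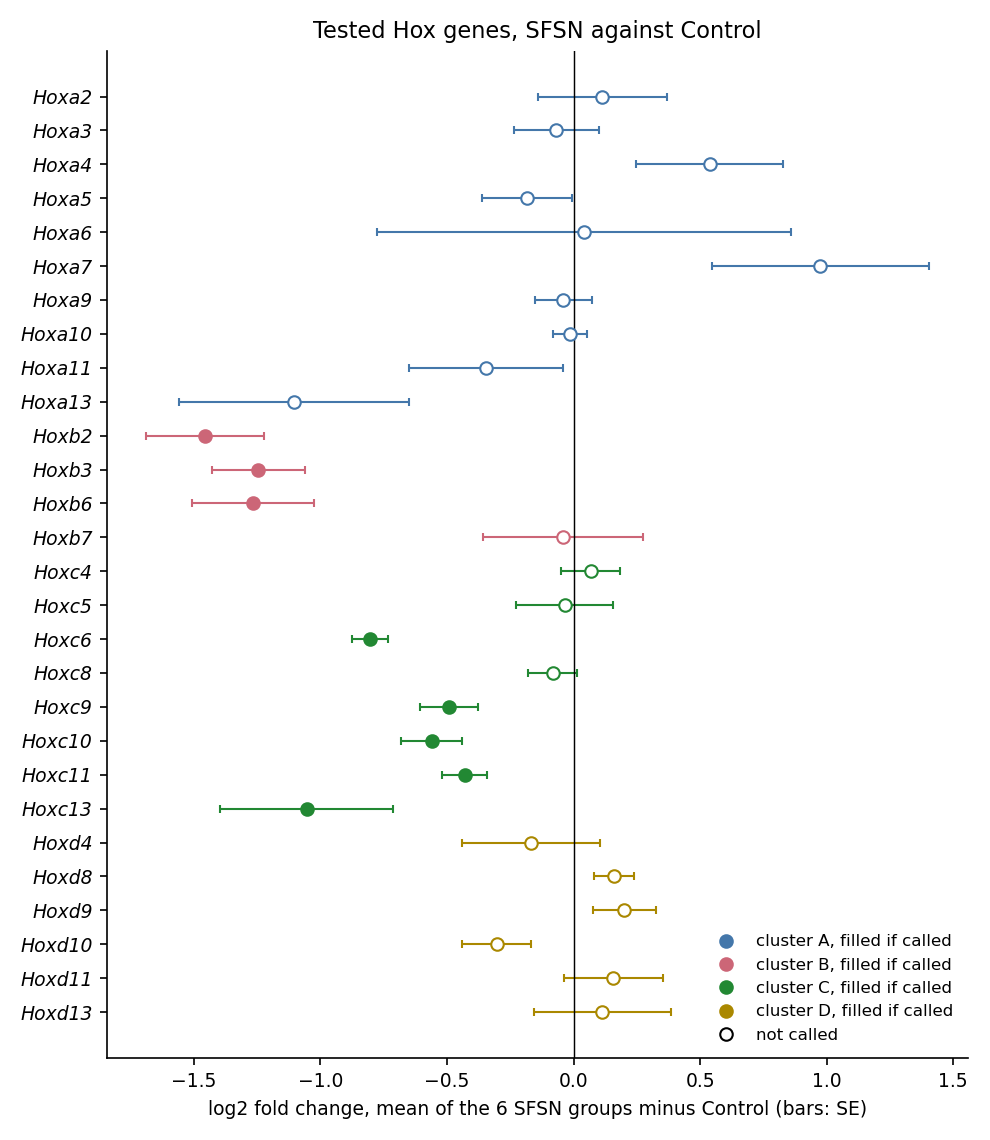
Log2 fold change of the SFSN mean against Control (horizontal axis, bars are SE) for 28 of the 29 Hox genes tested, in the order of clusters and positions and coloured by cluster. Filled points were called: 3 Hoxb and 5 Hoxc genes, all to the left of 0, from -0.43 for Hoxc11 to -1.46 for Hoxb2.

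In cluster B the low-numbered genes Hoxb2 and Hoxb3 and the central gene Hoxb6 fell, to 0.364, 0.422 and 0.416 times the Control level, while Hoxb7 did not pass the test. Hoxb2, which patterns the hindbrain and the facial nerve in mice, had counts of 27, 32 and 17 in Control, 11, 15 and 12 in SFSN-EC, 12, 7 and 12 in SFSN-Ot, 16, 16 and 11 in SFSN-TC, 9, 3 and 4 in SFSN-FB, 7, 14 and 8 in SFSN-Neu and 12, 10 and 10 in SFSN-Adipo. Every SFSN library lay below every Control library, and SFSN-FB was the lowest group. Its mean was 3.19 ± 0.96 CPM in Control (SD, n = 3) and 1.20 CPM over the SFSN groups, a log2 fold change of -1.46 ± 0.23 (SE, adjusted p = 5.01e-05). Hoxb3, a paralog of Hoxa3 and Hoxd3 that acts in hindbrain and neck structures, had counts of 41, 49 and 41 in Control, 19, 20 and 16 in SFSN-EC, 34, 18 and 13 in SFSN-Ot, 15, 22 and 23 in SFSN-TC, 21, 23 and 20 in SFSN-FB, 21, 17 and 19 in SFSN-Neu and 17, 21 and 24 in SFSN-Adipo. Here too no SFSN library reached Control, and SFSN-Ot 1, with 34 counts, came nearest. The change was -1.25 ± 0.18 (adjusted p = 2.00e-05), from 5.50 ± 0.58 CPM in Control to 2.32 CPM. Hoxb6, a gene of the trunk and of the lateral plate mesoderm in mouse embryos, had counts of 14, 21 and 18 in Control, 7, 6 and 4 in SFSN-EC, 8, 4 and 8 in SFSN-Ot, 12, 11 and 9 in SFSN-TC, 12, 11 and 8 in SFSN-FB, 6, 15 and 7 in SFSN-Neu and 9, 5 and 6 in SFSN-Adipo. Only SFSN-Neu 2, with 15 counts, overlapped with Control, and SFSN-EC was the lowest group at 0.64 ± 0.17 CPM. Its change was -1.27 ± 0.24 (adjusted p = 3.02e-04). Hoxb7, known for roles in the trunk and in tumour cell growth, had counts of 10, 12 and 11 in Control, 16, 8 and 16 in SFSN-EC, 11, 13 and 11 in SFSN-Ot, 7, 14 and 5 in SFSN-TC, 14, 22 and 11 in SFSN-FB, 8, 12 and 11 in SFSN-Neu and 19, 6 and 11 in SFSN-Adipo. Each SFSN group overlapped with Control, and its log2 fold change was -0.04 ± 0.32. All of these genes had few reads, below 50 per library, and Hoxb6 reached the count that the filter asks for in 3 Control libraries and in 5 of 18 SFSN libraries.

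**Figure D3:**
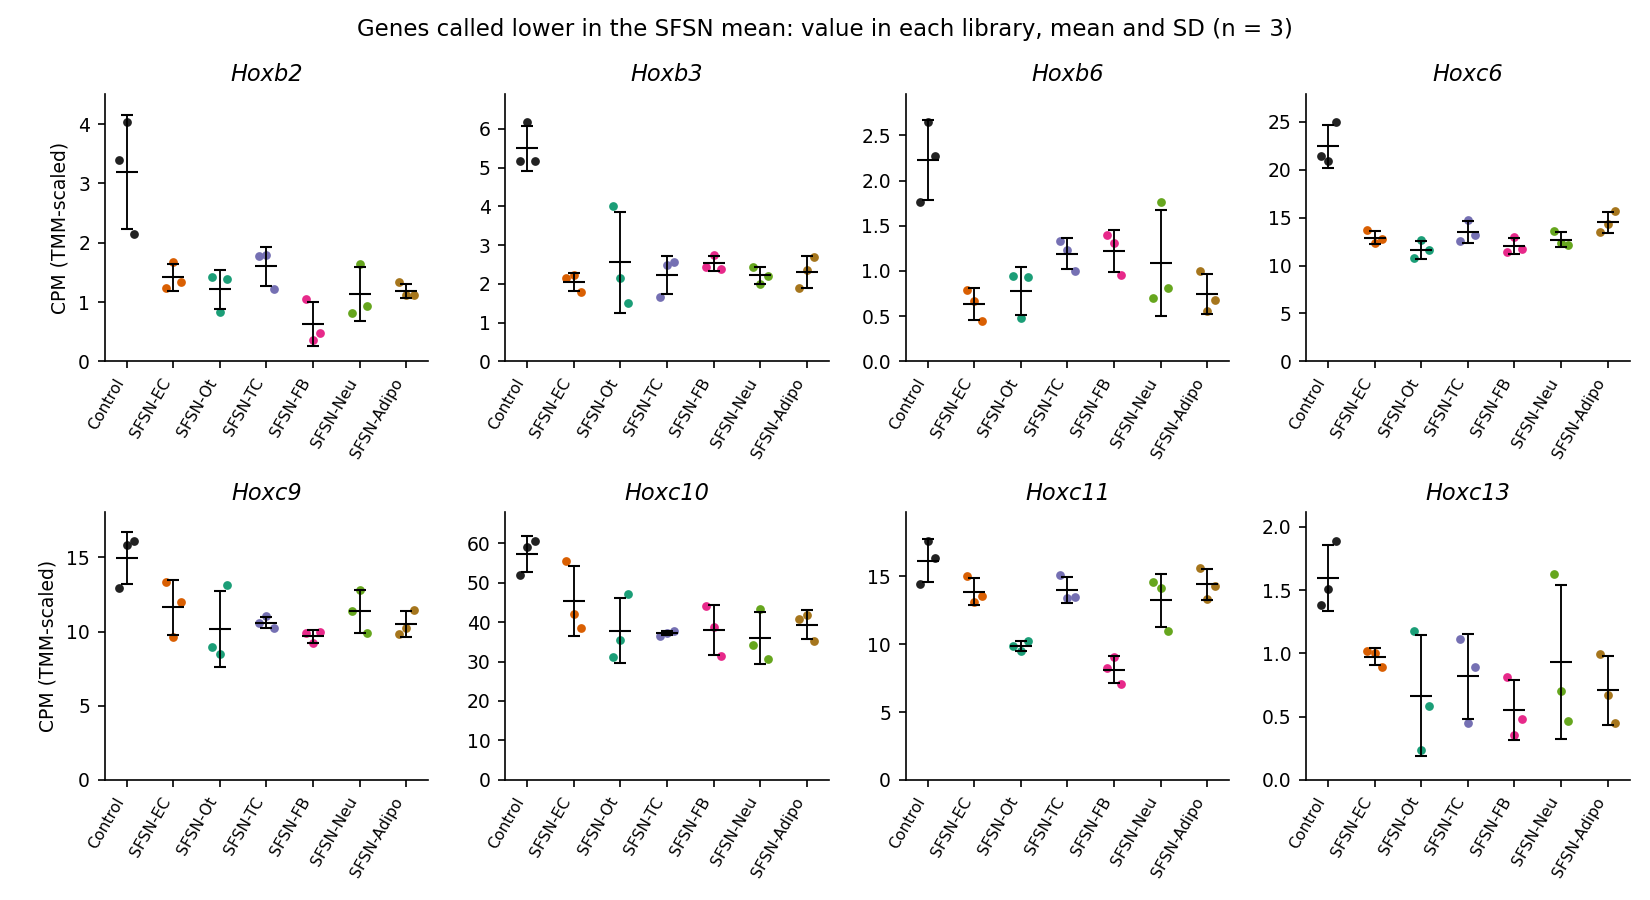
CPM in each library (vertical axis from 0, points) with mean and SD of 3 libraries (black) for the 8 Hox genes called lower in the SFSN mean, by group. In the panels of Hoxb2, Hoxb3 and Hoxc6 every SFSN point lies below every Control point; the other 5 panels show some overlap.

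In cluster C the genes called lower were Hoxc6, Hoxc9, Hoxc10, Hoxc11 and Hoxc13, while Hoxc4, Hoxc5 and Hoxc8 did not pass the test. Hoxc12 was not analysed, and Hoxc13 passed the low-count filter only through Control. These calls therefore do not show a fall of all genes at the high-numbered end. Hoxc6, a gene of the thoracic region, had counts of 170, 166 and 198 in Control, 121, 110 and 114 in SFSN-EC, 91, 106 and 100 in SFSN-Ot, 113, 131 and 118 in SFSN-TC, 98, 109 and 98 in SFSN-FB, 117, 105 and 104 in SFSN-Neu and 122, 128 and 139 in SFSN-Adipo. The highest SFSN library, at 139 counts, lay below the lowest Control library, at 166 counts. It fell from 22.4 ± 2.21 CPM in Control to 12.9 CPM, a log2 fold change of -0.80 ± 0.07 (adjusted p = 3.51e-08), the smallest adjusted p among the members in this comparison. Hoxc9, which sets the thoracic identity of motor neurons in mice, had counts of 103, 126 and 128 in Control, 118, 86 and 107 in SFSN-EC, 76, 71 and 113 in SFSN-Ot, 95, 98 and 92 in SFSN-TC, 85, 77 and 83 in SFSN-FB, 98, 109 and 85 in SFSN-Neu and 89, 91 and 102 in SFSN-Adipo. By CPM, SFSN-EC 1 and SFSN-Ot 3 reached the lowest Control library and the other SFSN libraries lay below it. Its change was -0.49 ± 0.12 (adjusted p = 0.00176). Hoxc10, a gene of lumbar levels and of the hindlimb, had counts of 413, 469 and 481 in Control, 491, 376 and 344 in SFSN-EC, 264, 297 and 405 in SFSN-Ot, 329, 332 and 337 in SFSN-TC, 378, 325 and 261 in SFSN-FB, 294, 367 and 263 in SFSN-Neu and 369, 373 and 312 in SFSN-Adipo. All SFSN libraries but SFSN-EC 1 lay below Control. The change was -0.56 ± 0.12 (adjusted p = 8.97e-04), from 57.2 ± 4.59 CPM to 38.9 CPM.

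Hoxc11, also a gene of the hindlimb field, had counts of 115, 140 and 130 in Control, 133, 117 and 121 in SFSN-EC, 84, 80 and 88 in SFSN-Ot, 136, 119 and 121 in SFSN-TC, 71, 76 and 59 in SFSN-FB, 126, 120 and 94 in SFSN-Neu and 141, 119 and 127 in SFSN-Adipo. The libraries of SFSN-Ot and SFSN-FB lay below all others, and the remaining 4 SFSN groups overlapped with Control. Its change in the mean of all SFSN groups was -0.43 ± 0.09 (adjusted p = 6.17e-04). Hoxc13, needed for hair and nails in mice, had counts of 11, 12 and 15 in Control, 9, 9 and 8 in SFSN-EC, 10, 2 and 5 in SFSN-Ot, 10, 4 and 8 in SFSN-TC, 7, 3 and 4 in SFSN-FB, 14, 6 and 4 in SFSN-Neu and 9, 6 and 4 in SFSN-Adipo. Its change was -1.05 ± 0.34 (adjusted p = 0.0176), and SFSN-Neu 1 with 14 counts overlapped with Control. Hoxc13 passed the low-count filter only through the Control libraries, 2 SFSN libraries reaching the same count, and its call was lost without Control 2 (adjusted p = 0.0523) or Control 3 (adjusted p = 0.111).

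For the remaining Hoxc genes the SFSN libraries together overlapped with Control, though by CPM all SFSN-Ot libraries lay below Control for Hoxc5 and all SFSN-TC libraries for Hoxc8, neither of them called. Hoxc4, a gene of the neck region, had counts of 59, 71 and 81 in Control, 100, 86 and 67 in SFSN-EC, 75, 69 and 73 in SFSN-Ot, 93, 105 and 91 in SFSN-TC, 71, 90 and 81 in SFSN-FB, 73, 72 and 80 in SFSN-Neu and 85, 69 and 83 in SFSN-Adipo. Its log2 fold change was 0.07 ± 0.12. Hoxc5 had counts of 15, 16 and 17 in Control, 23, 24 and 16 in SFSN-EC, 15, 13 and 11 in SFSN-Ot, 20, 18 and 17 in SFSN-TC, 16, 21 and 12 in SFSN-FB, 20, 17 and 11 in SFSN-Neu and 18, 18 and 22 in SFSN-Adipo. At this depth a change of its size, -0.04 ± 0.19, could not be told from 0. Hoxc8, which acts in the thoracic skeleton and in the motor neurons of the forelimb in mice, had counts of 75, 81 and 70 in Control, 73, 89 and 74 in SFSN-EC, 85, 85 and 80 in SFSN-Ot, 76, 76 and 77 in SFSN-TC, 61, 80 and 69 in SFSN-FB, 73, 82 and 82 in SFSN-Neu and 84, 91 and 70 in SFSN-Adipo. With a change of -0.08 ± 0.10 (adjusted p = 0.532) it was among the steadiest of the members, between Hoxc6 and Hoxc9, which both fell.

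In cluster A no gene was called. Hoxa10 had counts of 597.3, 662.85 and 669.44 in Control, 948.09, 784.81 and 772.98 in SFSN-EC, 590.08, 595.07 and 655.4 in SFSN-Ot, 764.06, 726.53 and 806.08 in SFSN-TC, 673.99, 581.19 and 559.82 in SFSN-FB, 663.86, 762.24 and 631.34 in SFSN-Neu and 742.73, 705.34 and 704.49 in SFSN-Adipo. SFSN-EC lay above Control and the other SFSN groups overlapped with it, Control being at 81.0 ± 5.06 CPM against a mean of 80.6 CPM, a log2 fold change of -0.01 ± 0.07 (adjusted p = 0.885). This is the most precise of the estimates for the members, but its sign depends on scaling: it was 0.18 (adjusted p = 0.0467) with total-count scaling and 0.16 by limma on log2(TPM + 0.1) and on log2(TPM + 1) (adjusted p = 0.00314 and 0.00319). Hoxa9, a regulator of blood stem cells that is often active in leukaemia, had counts of 130.33, 109.67 and 107.67 in Control, 131, 117.67 and 126.33 in SFSN-EC, 140.67, 141.67 and 106.67 in SFSN-Ot, 157.67, 163 and 144.67 in SFSN-TC, 83, 121.67 and 98.67 in SFSN-FB, 119.67, 102 and 117.33 in SFSN-Neu and 105.67, 129.67 and 137.67 in SFSN-Adipo. SFSN-TC was the highest group and SFSN-FB the lowest, with Control between them.

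Hoxa11, which forms the forearm and the kidney together with its paralogs in mice, had counts of 318.03, 460.02 and 347.05 in Control, 577.8, 235.66 and 234.15 in SFSN-EC, 79.44, 284.63 and 398.5 in SFSN-Ot, 327.97, 329.31 and 555.23 in SFSN-TC, 238.41, 321.44 and 217.78 in SFSN-FB, 301.83, 365.78 and 315.91 in SFSN-Neu and 424.79, 323.09 and 393.21 in SFSN-Adipo. The spread within groups was wide, with a coefficient of variation of 31.1% on average over groups, and its log2 fold change was -0.34 ± 0.30. A row without a gene name in the sources used here, LOC100909443, ran opposite to it: it held 359.28 counts in SFSN-Ot 1, where Hoxa11 was lowest, and 0 in SFSN-TC 3, where Hoxa11 held 555.23. The sum of both rows ranged from 395.54 to 677.49 counts and varied by 11.5% within groups. This row was picked after its values were seen, and whether it shares reads with Hoxa11 was not tested.

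Hoxa13, which shapes the digits and the urogenital tract, had counts of 4.72, 16.87 and 7.23 in Control, 2.39, 7.23 and 2.38 in SFSN-EC, 9.65, 4.76 and 4.76 in SFSN-Ot, 6.83, 4.79 and 0 in SFSN-TC, 2.48, 2.44 and 2.31 in SFSN-FB, 7.07, 9.23 and 7.19 in SFSN-Neu and 9.41, 11.98 and 4.91 in SFSN-Adipo. Control 2 was the highest library, and the row held 30.7% of the counts of its copies. Its change of -1.11 ± 0.45 missed the threshold (adjusted p = 0.0555) and passed with copies summed, at -0.61 ± 0.17 (adjusted p = 0.00687), with 22 to 32 summed counts in Control and 12 to 28 in SFSN. On leaving out 1 library the deposited row stayed uncalled in 16 of 21 cases (adjusted p up to 0.606). It was called lower in the others, as without Control 1 (-1.407, adjusted p = 0.0335). Hoxa7, a trunk gene, had counts of 3.93, 5.61 and 5.06 in Control, 12.47, 11.23 and 4.87 in SFSN-EC, 18.89, 1.59 and 13.26 in SFSN-Ot, 12.04, 11.64 and 8.26 in SFSN-TC, 13, 14.13 and 12.11 in SFSN-FB, 6.7, 12.52 and 7.85 in SFSN-Neu and 10.88, 15.39 and 11.38 in SFSN-Adipo. All but 2 SFSN libraries, SFSN-EC 3 and SFSN-Ot 2, exceeded the highest Control library, with a log2 fold change of 0.98 ± 0.43 (adjusted p = 0.0732). It was called without SFSN-Ot 2 (1.06, adjusted p = 0.00801), with total-count scaling (1.16, adjusted p = 0.0294), by limma on both TPM scales (adjusted p = 0.0469 and 0.0306) and with a gene-length trend removed (adjusted p = 0.0417). Hoxa6, at the neighbouring position, had counts of 0.76, 13.5 and 3.69 in Control, 3.01, 21.56 and 3.75 in SFSN-EC, 18.27, 5.12 and 7.48 in SFSN-Ot, 0.47, 15.79 and 10.98 in SFSN-TC, 2.52, 0 and 8.02 in SFSN-FB, 9.98, 3.86 and 6.6 in SFSN-Neu and 3.81, 6.43 and 8.05 in SFSN-Adipo. Replicates of one group differed by a factor of several, and no statement on a change can be made (0.04 ± 0.82). Hoxa5, needed for the lung and the lower neck in mice, had counts of 86.89, 66.53 and 76.81 in Control, 62.79, 85.99 and 84.78 in SFSN-EC, 68.46, 88.74 and 47.32 in SFSN-Ot, 107.31, 98.4 and 86.26 in SFSN-TC, 51.19, 61.99 and 63.23 in SFSN-FB, 64.32, 62.62 and 79.18 in SFSN-Neu and 53.14, 94.75 and 96 in SFSN-Adipo. The SFSN libraries as a whole overlapped with Control, while those of SFSN-FB alone all lay below it (not called).

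Hoxa2, Hoxa3 and Hoxa4 were expressed at low levels in every group. Hoxa2, which sets the identity of the second pharyngeal arch, had counts of 22.79, 19 and 15.01 in Control, 11.38, 28.12 and 18.93 in SFSN-EC, 30, 28 and 13.25 in SFSN-Ot, 24.5, 13.86 and 22.22 in SFSN-TC, 25, 31.25 and 29 in SFSN-FB, 24.85, 26.12 and 22.9 in SFSN-Neu and 20.49, 17.05 and 24.56 in SFSN-Adipo. Hoxa3, needed for the thymus and parathyroid in mice, had counts of 28.07, 28.57 and 20.91 in Control, 32.5, 19 and 33 in SFSN-EC, 28.5, 41.5 and 28.5 in SFSN-Ot, 34.11, 28 and 25.5 in SFSN-TC, 19, 20 and 17 in SFSN-FB, 30, 30 and 29.5 in SFSN-Neu and 29.5, 26.5 and 25.19 in SFSN-Adipo. The SFSN libraries together overlapped with Control for both, with log2 fold changes of 0.11 ± 0.25 and -0.07 ± 0.17 in the SFSN mean. SFSN-FB alone lay wholly above Control for Hoxa2 and wholly below it for Hoxa3, neither of them called. Hoxa4 had counts of 7.5, 3 and 5 in Control, 10.5, 11.5 and 12 in SFSN-EC, 4.5, 8 and 10 in SFSN-Ot, 7.5, 10 and 11.5 in SFSN-TC, 7.5, 5.5 and 5 in SFSN-FB, 11.5, 8 and 7.5 in SFSN-Neu and 7, 8.5 and 9 in SFSN-Adipo. Its change was 0.54 ± 0.29 (adjusted p = 0.208), at a mean of 0.67 CPM in Control and 1.00 CPM in SFSN, and it was called by limma on log2(TPM + 0.1) (0.65, adjusted p = 0.0189) and on log2(TPM + 1) (0.24, adjusted p = 0.0252).

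In cluster D no gene was called either. Hoxd8, the main Hoxd gene here, had counts of 241, 262 and 231 in Control, 271, 341 and 317 in SFSN-EC, 261, 259 and 305 in SFSN-Ot, 309, 309 and 331 in SFSN-TC, 321, 264 and 255 in SFSN-FB, 250, 307 and 301 in SFSN-Neu and 346, 323 and 346 in SFSN-Adipo. Control lay at the low end, with SFSN-Adipo highest, and the change of 0.16 ± 0.08 had an adjusted p of 0.109. Under total-count scaling it was 0.35 (adjusted p = 0.0011). Hoxd9 and Hoxd10 act together with their paralogs at lumbar and sacral levels in mice. Hoxd9 had counts of 37, 32 and 29 in Control, 41, 38 and 44 in SFSN-EC, 44, 35 and 32 in SFSN-Ot, 46, 44 and 38 in SFSN-TC, 49, 38 and 37 in SFSN-FB, 36, 38 and 46 in SFSN-Neu and 47, 47 and 44 in SFSN-Adipo. Hoxd10 had counts of 44, 30 and 53 in Control, 42, 39 and 37 in SFSN-EC, 27, 27 and 33 in SFSN-Ot, 46, 48 and 39 in SFSN-TC, 40, 36 and 27 in SFSN-FB, 36, 38 and 34 in SFSN-Neu and 47, 43 and 46 in SFSN-Adipo. The first changed by 0.20 ± 0.12 (adjusted p = 0.279) and the second by -0.30 ± 0.14 (adjusted p = 0.0811). Without Control 2, Hoxd10 was called lower (-0.489, adjusted p = 0.0102). Hoxd9 lay above Control in all SFSN-Adipo libraries, without a call there (adjusted p = 0.176), and was called higher in the SFSN mean with total-count scaling (0.39, adjusted p = 0.0186).

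Hoxd11, the partner of Hoxa11 in the forearm, had counts of 17, 12 and 17 in Control, 18, 19 and 18 in SFSN-EC, 24, 14 and 24 in SFSN-Ot, 21, 16 and 18 in SFSN-TC, 11, 13 and 11 in SFSN-FB, 25, 17 and 19 in SFSN-Neu and 34, 26 and 20 in SFSN-Adipo. SFSN-FB held the lowest values and SFSN-Adipo the highest, on either side of Control. Hoxd13, the digit gene whose human mutations fuse fingers and toes, had counts of 10, 20 and 14 in Control, 20, 16 and 11 in SFSN-EC, 16, 17 and 16 in SFSN-Ot, 22, 14 and 21 in SFSN-TC, 16, 16 and 10 in SFSN-FB, 16, 30 and 11 in SFSN-Neu and 24, 18 and 23 in SFSN-Adipo. Hoxd4, at the neck end of the cluster, had counts of 42, 27 and 35 in Control, 31, 25 and 39 in SFSN-EC, 44, 50 and 15 in SFSN-Ot, 61, 48 and 38 in SFSN-TC, 18, 34 and 25 in SFSN-FB, 25, 29 and 37 in SFSN-Neu and 26, 45 and 31 in SFSN-Adipo. In both, each SFSN group overlapped with Control (log2 fold changes of 0.11 ± 0.27 and -0.17 ± 0.27).

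The 8 members that were not tested were Hoxb4, Hoxb5, Hoxb8, Hoxb9, Hoxb13, Hoxd1, Hoxd3 and Hoxd12. Hoxb4 had 1 to 8 counts per library, Hoxb5 0 to 7 and Hoxd3 0 to 12. Hoxb8 had at most 3 counts and Hoxb9 at most 2. Hoxb13, Hoxd1 and Hoxd12 had 1 count in 1 library each and 0 in the other 20. Hoxb4 had counts in all 21 libraries, Hoxd3 in 20 and Hoxb5 in 19, so these were detected but too low to test. For the others, a count of 0 allows up to 3 counts in a library, so a low level could be missed at this depth.

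Each SFSN group was also set against Control alone, and these 6 comparisons share the 3 Control libraries. In SFSN-EC 4 of 29 Hox genes were called, all lower, against 33.3% of all genes (15.6% lower). In SFSN-Ot 8 were called, all lower (39.5% of all genes, 19.3% lower and 20.2% higher), and in SFSN-TC 6, all lower (38.1%, 18.8% lower). In SFSN-FB 9 were called, all lower (42.7%, 21.2% lower), among them Hoxc13, which passed the low-count filter only through Control. In SFSN-Neu 6 were called, all lower (38.1%, 17.9% lower and 20.1% higher), and in SFSN-Adipo 7, of which 6 were lower and 1 higher (36.5%, 16.8% lower and 19.7% higher). Hoxb2, Hoxb3, Hoxb6 and Hoxc6 fell in all 6 groups. Hoxb2 ranged from -0.99 ± 0.32 in SFSN-TC to -2.31 ± 0.37 in SFSN-FB, Hoxb3 from -1.10 ± 0.26 in SFSN-Ot to -1.41 ± 0.26 in SFSN-EC, Hoxb6 from -0.86 ± 0.33 in SFSN-FB to -1.78 ± 0.36 in SFSN-EC, and Hoxc6 from -0.63 ± 0.10 in SFSN-Adipo to -0.94 ± 0.10 in SFSN-Ot. The calls of Hoxb3 and Hoxc6 held in all 6 groups under every alternative run. Those of Hoxb6 in SFSN-TC, SFSN-FB and SFSN-Neu were not made by DESeq2 (adjusted p = 0.0927, 0.107 and 0.0592) or with total-count scaling (0.091, 0.103 and 0.0561), and held in 1, 1 and 2 of 6 cases on leaving out 1 library (adjusted p up to 0.147, 0.158 and 0.107). Those of Hoxb2 were lost in 1 of 6 such cases in SFSN-EC, without Control 2 (adjusted p = 0.0597), and in 3 of 6 in SFSN-TC (adjusted p up to 0.111).

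Hoxc9 and Hoxc10 were called lower in all groups but SFSN-EC. Their SFSN-EC means also lay below Control, at 11.64 against 14.99 CPM for Hoxc9 and 45.33 against 57.24 CPM for Hoxc10. SFSN-EC 1 had the highest Hoxc10 count of all 21 libraries. The Hoxc9 call in SFSN-Neu lay at the threshold (adjusted p = 0.0499) and was not made by DESeq2 (adjusted p = 0.0586), and with total-count scaling Hoxc9 also missed it in SFSN-TC and SFSN-Adipo and Hoxc10 in SFSN-FB and SFSN-Adipo (adjusted p = 0.125, 0.123, 0.0535 and 0.106). Hoxc9 in SFSN-TC was -0.091 by limma on log2(TPM + 0.1) (adjusted p = 0.546). On leaving out 1 of the 6 libraries compared, the Hoxc9 call held in 3 of 6 cases in SFSN-TC and in 2 of 6 in SFSN-Adipo and in SFSN-Neu (adjusted p up to 0.0744, 0.0671 and 0.189). Hoxc11 was called lower in SFSN-Ot (-0.71 ± 0.12) and SFSN-FB (-0.99 ± 0.12). Calls made in 1 group were Hoxd10 in SFSN-Ot (-0.64 ± 0.19, adjusted p = 0.0106), Hoxc13 and Hoxa13 in SFSN-FB (-1.51 ± 0.50 and -2.29 ± 0.73), and Hoxd8 in SFSN-Adipo (0.30 ± 0.10, adjusted p = 0.0285), the only member called higher. Each was lost on leaving out 1 library: Hoxd10 without Control 3 (adjusted p = 0.12), Hoxc13 without Control 3 (0.0734), Hoxa13 without Control 2 (0.132), and Hoxd8 without Control 3 (0.0951). With total-count scaling, 3 members were called higher and 4 lower in SFSN-EC, 4 and 4 in SFSN-TC, 2 and 7 in SFSN-FB, 1 and 4 in SFSN-Neu, 4 and 4 in SFSN-Adipo, and 0 and 8 in SFSN-Ot. The shares of all genes called were not taken under that scaling, which raised the median of all genes by 0.19 in the SFSN mean. These counts thus have no background beside them. In SFSN-TC 3 calls were left without Control 2 or without SFSN-TC 3, and in SFSN-Adipo 4 without Control 3.

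**Figure D4:**
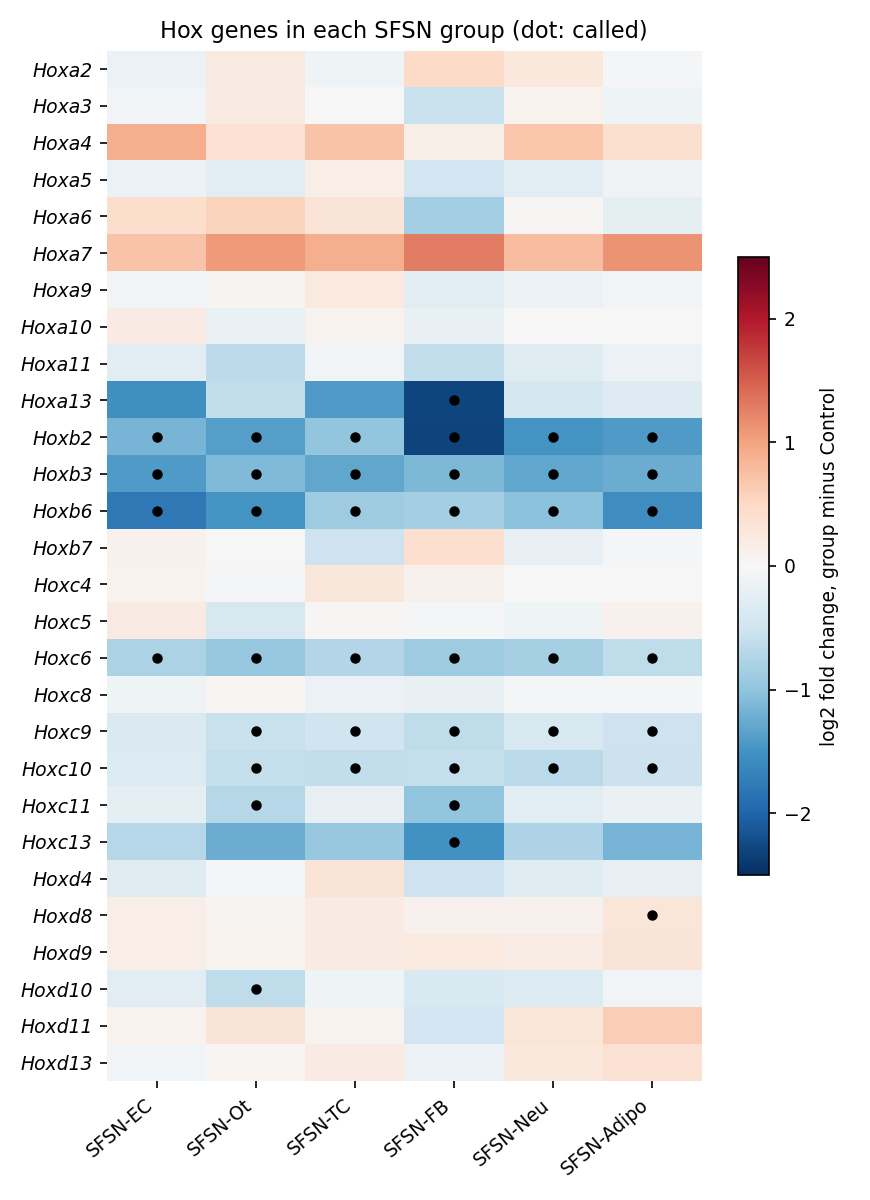
Log2 fold change against Control (colour, blue lower and red higher) of 28 of the 29 tested Hox genes (rows, by cluster and position) in each of the 6 SFSN groups (columns); a black dot marks a call. The rows of Hoxb2, Hoxb3, Hoxb6 and Hoxc6 are blue with a dot in all 6 columns, and SFSN-Adipo holds the single dot on a red cell, at Hoxd8.

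Among the SFSN groups themselves, without the Control libraries that the comparisons above share, few Hox genes differed. In an F test for any difference among the 6 groups, 3 of 29 members (10.3%) were called, where 34.1% of all genes were. These were Hoxc11 (adjusted p = 1.27e-04), Hoxa10 (adjusted p = 0.0119) and Hoxd11 (adjusted p = 0.0353). Hoxc11 stood at 8.14 ± 1.01 CPM in SFSN-FB and 9.88 ± 0.34 CPM in SFSN-Ot, and between 13.2 ± 1.99 CPM in SFSN-Neu and 14.4 ± 1.14 CPM in SFSN-Adipo elsewhere. Hoxa10 was highest in SFSN-EC at 93.8 ± 11.5 CPM and lowest in SFSN-FB at 71.6 ± 5.97 CPM and SFSN-Ot at 72.2 ± 3.40 CPM. Hoxd11 ranged from 1.38 ± 0.15 CPM in SFSN-FB to 2.98 ± 0.76 CPM in SFSN-Adipo. The calls of Hoxc11 and Hoxa10 held when any 1 SFSN library was left out. That of Hoxd11 was lost in 8 of 18 such cases, those of SFSN-EC 3, SFSN-TC 2 and 3, each SFSN-FB library, and SFSN-Adipo 1 and 2 (adjusted p up to 0.127), and was not made by DESeq2 (adjusted p = 0.14).

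**Figure D5:**
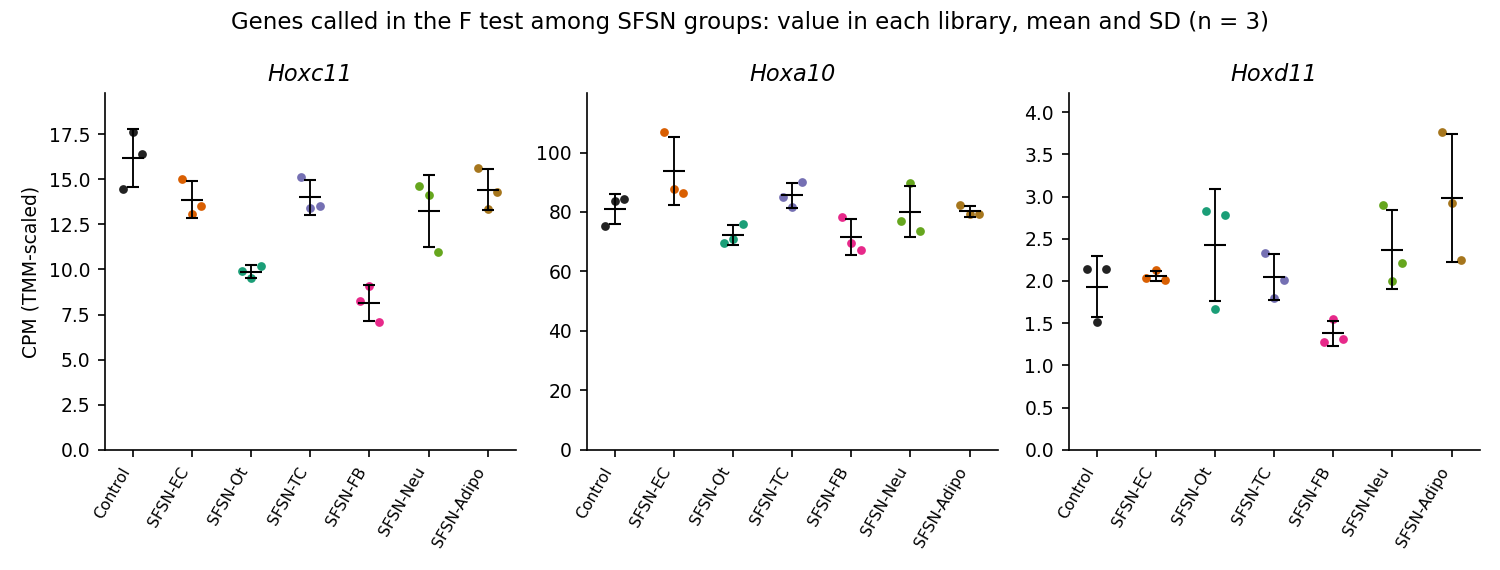
CPM in each library (vertical axis from 0, points) with mean and SD of 3 libraries (black) of the 3 Hox genes called in the F test among SFSN groups. In the Hoxc11 panel all points of SFSN-Ot and SFSN-FB lie below all others, and in the Hoxd11 panel SFSN-FB lies lowest among the SFSN groups.

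Each SFSN group was also set against the average of the remaining 5, and SFSN-FB then had the most members called. It had 5 of 29, all lower, against 24.2% of all genes (12.2% lower): Hoxc11 (-0.67 ± 0.10, adjusted p = 6.77e-05), Hoxd11 (-0.76 ± 0.21, adjusted p = 0.0114), Hoxb2 (-1.03 ± 0.33, adjusted p = 0.0278), Hoxa3 (-0.59 ± 0.18, adjusted p = 0.0229) and Hoxa10 (-0.20 ± 0.07, adjusted p = 0.0495). The groups did not overlap for Hoxc11 and Hoxd11. In SFSN-EC Hoxa10 was higher (0.27 ± 0.07, adjusted p = 0.0211, 6.01% of all genes called, 3.17% higher and 2.84% lower), and its library 1, at 948.09 counts, was the highest of all. Without that library the difference was 0.167 (adjusted p = 0.192). In SFSN-TC Hoxa9 was higher (0.34 ± 0.11, adjusted p = 0.0417, 15.6% of all genes called, 7.64% higher and 7.91% lower). Hoxc11 was lower in SFSN-Ot (-0.34 ± 0.10, adjusted p = 0.0246, 15% of all genes called, 7.1% lower and 7.9% higher) and higher in SFSN-Adipo (0.32 ± 0.09, adjusted p = 0.0286, 10.5% of all genes called, 5.71% higher and 4.78% lower). In SFSN-Neu 0 members were called by edgeR, where 12.2% of all genes were, and 0 had an unadjusted p under 0.05. Of these 9 calls, only that of Hoxc11 in SFSN-FB held when any 1 SFSN library was left out, and without SFSN-FB 3 the number of calls was 4. DESeq2 did not call Hoxa3, Hoxb2 and Hoxd11 in SFSN-FB (adjusted p = 0.0681, 0.0688 and 0.0516).

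Genes known to set or hold Hox expression were examined through lists chosen with earlier results of these data known. They were set against the 45.9% of all genes called in the SFSN mean (23.5% higher, 22.4% lower). Of 18 Polycomb genes tested, which keep silent Hox genes off, 8 were higher and 4 lower. Cbx7, a reader subunit of the first Polycomb complex, rose by 1.08 ± 0.21 from 1.13 to 1.89 CPM in Control to 2.11 to 4.54 CPM. Ezh2, the enzyme that writes the repressive mark, rose by 0.64 ± 0.05. Eed, the partner of Ezh2 that binds the mark, fell by 0.71 ± 0.04 on the log2 scale, from 151 to 165 CPM in Control to 86.4 to 111 CPM. Subunits of the same complex thus moved in opposite directions. Of 18 Trithorax, demethylase and elongation genes, which counter Polycomb, 1 was called: Ash2l, a subunit shared by the activating methyltransferases, rose by 0.16 ± 0.04.

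Retinoic acid switches on low-numbered Hox genes in embryos. Of 8 genes of its metabolism that were tested, 4 were higher and 1 lower. Adh7, a retinol-oxidising dehydrogenase, rose by 2.15 ± 0.17, Crabp1, a retinoic acid binding protein, by 1.38 ± 0.18, and Cyp26b1, the enzyme that breaks retinoic acid down, by 1.20 ± 0.06, from 70.0 to 78.5 CPM in Control to 84.5 to 297 CPM. Adh7 lay at 0.63 to 1.26 CPM in Control and 3.12 to 5.05 CPM in SFSN libraries. It passed the low-count filter only through SFSN and so could be tested only if it was higher there. Which libraries let the other listed genes pass was not examined. Dhrs9, a retinol dehydrogenase, rose by 0.97 ± 0.29, and Crabp2, another retinoic acid binding protein, fell by 0.87 ± 0.12 on the log2 scale. Of 5 upstream axial regulators tested, 5 were higher, where 23.5% of all genes tested were called higher. Cdx1, of the same list, did not pass the filter on low counts. It lay at 1.13 to 1.89 CPM in Control and lower, at 0.112 to 1.08 CPM, in SFSN libraries. Gmnn, which opposes Hox activity and DNA replication licensing, rose by 0.44 ± 0.14, Egr2, a hindbrain regulator of Hoxb2 in mice, by 0.21 ± 0.08, and Gdf11, which sets posterior Hox boundaries in mice, by 0.18 ± 0.05. The SFSN libraries lay on both sides of Control for Egr2, at 22.8 to 95.7 CPM against 47.4 to 47.9 CPM. Egr2 also differed among the SFSN groups (edgeR F test, adjusted p = 3.42e-09). Of 10 limb patterning genes, 4 were higher and 3 lower: Epha4, a receptor of the Eph family, rose by 2.39 ± 0.19, and Gli3, a hedgehog effector, by 0.63 ± 0.24. Bmp4, a secreted limb signal, fell by 1.56 ± 0.11 on the log2 scale and Fgf10, which starts the limb bud, by 1.37 ± 0.12. Of 27 other homeobox genes, 4 were higher and 4 lower, with Gbx2 (-2.02 ± 0.24) and Dlx1 (0.99 ± 0.15) at the extremes. Of 4 tested genes within 200 kb of a Hox cluster, by the order of genes in RefSeq, only Gip, a gut hormone gene beside cluster B, was called, at a log2 fold change of -1.48 ± 0.27, from 1.64 to 3.03 CPM in Control to 0.24 to 1.35 CPM.

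Genes from marker lists of other cells differed alongside, where 45.9% of all genes tested were called in the SFSN mean, 23.5% higher and 22.4% lower. Of 17 macrophage and leukocyte genes tested, 13 were higher in the SFSN mean and 0 lower, with a summed level of 1040 to 1120 CPM in Control and 1180 to 2180 CPM in SFSN libraries, while the T cell gene Cd3e was at 0 in every library. By the F test, 16 of the 17 also differed among the SFSN groups, against 34.1% of all genes, so their levels were not uniform over the groups. Of 5 endothelial genes 3 were lower (sum 90.6 to 96.4 CPM in Control, 39.6 to 56.0 CPM in SFSN), of 5 smooth muscle genes 4 were lower and 1 higher (20400 to 22200 CPM, 12500 to 17700 CPM), and of 3 neuron genes 3 were lower (36.0 to 42.2 CPM, 14.8 to 27.6 CPM). Of 13 marrow stromal genes 3 were higher and 5 lower (145000 to 151000 CPM, 95800 to 124000 CPM). No erythroid gene was tested, the sum staying between 0.953 and 2.26 CPM, and of the epithelial genes only Krt8 was tested and it was not called. The part of these differences in the Hox results was not tested.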

How the data were processed

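Per the deposited processing notes, reads were trimmed with SOAPnuke 2.2.1, aligned to the rat build Rnor_6.0 with HISAT2 2.2.1, and mapped with Bowtie2 2.4.5 to a set of known and new transcripts. The authors quantified genes with RSEM 1.3.1 and deposited expected counts, which need not be whole: 85.3% of the values above 0 lay within 0.025 of a whole number. The authors also deposited TPM and FPKM, both per length, and a normalized count (a signal with library factors from DESeq2 1.34.0). Which annotation release they used: not given in the sources used here.

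Expected counts were rounded and tested with edgeR 4.0.16 (R 4.3.3; TMM scaling, filterByExpr, quasi-likelihood test over all 21 libraries with 1 term per group, 14 residual degrees of freedom, Benjamini-Hochberg adjustment over 6659 genes). SE was taken as |log2 fold change| over the root of F. TPM and FPKM gave levels. Alternatives used DESeq2 1.42.0, limma 3.58.1, other scalings, filters and left-out libraries. The test was tried on simulated counts. The rule for named genes took every tested member with at least 1 CPM in a group or a call; 8 members were below the filter. Some genes are counted in the totals but not reported here by name or in the figures. The members and lists were chosen with earlier results of these data known. Same-numbered replicates were not treated as pairs.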

Additional observations from a re-analysis of the deposited data

Results flagged for a closer look

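Hoxa10, Hoxc11 and Hoxd11 differed among the 6 SFSN groups by the edgeR quasi-likelihood F test, with adjusted p-values of 0.0119, 0.000127 and 0.0353. Hoxc11 was lowest in SFSN-FB and SFSN-Ot, Hoxa10 was highest in SFSN-EC, and Hoxd11 was lowest in SFSN-FB and highest in SFSN-Adipo. Without SFSN-EC 1, Hoxa10 in SFSN-EC differed from the other SFSN groups by 0.167 (edgeR, adjusted p = 0.192). By TPM, Hoxa10 in SFSN-EC and SFSN-TC lay close, at means of 34.95 and 34.04. The Hoxd11 call held in 10 of 18 cases of leaving out 1 SFSN library and was not made by DESeq2 (adjusted p = 0.14).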

How the results depend on the processing

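Total-count scaling gave 7 Hox genes called in SFSN-EC against Control (3 higher, 4 lower). For the SFSN mean, limma gave 13 on log2(TPM + 0.1) and 13 on log2(TPM + 1), each 5 higher and 8 lower, and 11 in SFSN-TC on log2(TPM + 1), 6 higher and 5 lower. Hoxa10 changed sign, to 0.176 with total counts, 0.16 by limma on log2(TPM + 0.1) and 0.156 on log2(TPM + 1). Summing copies moved the shares of the Hox level to 58.6% for cluster A, 2.11% for B, 27.0% for C and 12.3% for D. Leaving out 1 library gave 3 to 5 calls in SFSN-TC, 4 to 6 in SFSN-Adipo, 3 to 6 in SFSN-EC, 7 to 9 in SFSN-Ot and likewise in SFSN-FB, 4 to 7 in SFSN-Neu, 7 to 9 in the SFSN mean, 2 to 4 in the F test and 4 to 10 against the other SFSN groups. The shares of all genes called were not taken under these settings, so these counts have no background beside them. The cause was not tested. Fits on only the libraries compared were not run for the SFSN mean. Genes with few counts limit what the depth can show.

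The replicate numbers gave no clear pairing of the libraries. Deviations of same-numbered libraries correlated above 0.1 in 4, 6 and 7 of 21 pairs, against 31 of 126 pairs of different number and group. Of 21 libraries, 10 were closest to their own number. With the replicate number as a block, calls came to 9 each in SFSN-Ot, SFSN-FB and SFSN-Adipo, 4 for SFSN-EC, 6 for SFSN-TC, 5 for SFSN-Neu, 9 in the SFSN mean, 3 in the F test, 8 against the other SFSN groups and 37 in the other lists, none moved by more than 1.5 times. The calls of Hoxc9 in SFSN-Neu (adjusted p = 0.0627), and of Hoxa10 in SFSN-FB and Hoxa9 in SFSN-TC against the other SFSN groups (0.0673 and 0.0582), were lost, and Hoxa13 was called in the SFSN mean (-1.08, adjusted p = 0.0422).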
